A study of Mus musculus with 18 samples.

Results

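Of the genes of the mouse node and its cilia, 10 were followed: Noto, Foxj1, Rfx2, Rfx3, Pifo, Mns1, Pkd1l1, Pkd2, Dand5 and Gdf1. They were taken by name, 10 among a table of 24498 gene rows, and 9 of the 10 had a row. Pkd1l1 was not analysed here. Gdf1 was listed at 0 in all 18 libraries, and the other 8 genes entered the tests, which covered 14711 genes. The libraries came from embryos at embryonic day 7.5 that carried FoxA2, a forkhead factor of node, notochord and endoderm, fused to tagRFP on both copies.

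The ΔHx embryos were homozygous for a FoxA2-tagRFP that lacked 10 amino acids forming an α-helix, and the WT embryos were homozygous for the full-length FoxA2-tagRFP, so both genotypes carried the tag. Cells of each genotype were sorted by red fluorescence into a High, a Mid and a Neg gate, and each of the 6 groups had 3 replicates. About 10 embryos were pooled for a sort, their sex was not determined, and the mice were of a mixed C57Bl6/J and CD-1 background. Foxa2 itself followed the gates: its normalised read counts were 1848, 2078 and 2385 in ΔHx High and 2483, 1742 and 1556 in WT High libraries, 547, 611 and 1229 in ΔHx Mid and 871, 812 and 621 in WT Mid libraries, and 62.5, 55.1 and 43.4 in ΔHx Neg and 40.6, 20.3 and 23.6 in WT Neg libraries. These values check the gates and not the deletion, since they are counts over the whole gene. The libraries held 12302196 to 17194136 reads in genes. Between 15649 and 17917 genes were detected in a library, with the lowest number in ΔHx High replicate 3.

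The node is a pit of ciliated cells at the tip of the mouse embryo. Central pit cells carry motile cilia whose rotation drives a leftward fluid flow, and crown cells at the rim sense the flow with immotile cilia. In crown cells the sensor is a complex of polycystins, Pkd1l1 and Pkd2, and the flow lowers the Nodal antagonist Dand5 on the left, which lets Nodal, aided by its partner ligand Gdf1, signal to the left side. The motile cilia depend on Noto, a homeobox factor that acts upstream of the forkhead factor Foxj1, and on Rfx3. Rfx2 and Rfx3 are winged-helix factors that bind X-box motifs in promoters of ciliary genes. Pifo is a protein of node cilia linked to their disassembly, and Mns1 is a protein of the ciliary axoneme.

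RFX factors and forkhead factors have known DNA motifs, and promoter matches of the followed genes are printed here because 3 of the 10 genes encode such factors. The windows ran from 250 bases before to 50 bases after each RefSeq start (GRCm38.p6), and 9 of the 10 genes had 1 or more windows. Foxj1 was not in the promoter table. The X-box half-site GTTGCC, searched on both strands, was in 4 of the 11 windows of these genes, and in 12.5% of 32851 promoters. These windows belonged to 4 of the 9 genes. The forkhead core TGTTTNC, where N is any base, was in 2 of the 11 windows, from 2 of the 9 genes, and in 20.5% of promoters. The 2 motifs were counted separately, whether or not they overlapped, and a match describes the letters and is not a site of binding. The 30-base windows around the matches follow, on the strand of the gene, with the motif or its reverse complement in capitals.
Pifo, chr3:106001492-106001521, minus strand: ttccgttcccttGGCAACgtagtacacaga
Mns1, chr9:72438445-72438474, plus strand: gcgctcctgcctGGCAACgaagactctccg
Mns1, chr9:72438532-72438561, plus strand: gcatttttggcgGTTGCCgggacacagctt
Rfx2, chr17:56831107-56831136, minus strand: agcttggtaaccGTTGCCgggcgcaacgcc
Rfx3, chr19:28011118-28011147, minus strand: gttatagcaaccGTTGCCttgtgaatcaag
Noto, chr6:85423858-85423887, plus strand: ttaagagtccttGCAAACAgctggccctag
Dand5, chr8:84822812-84822841, minus strand: tgtgagctcccaGAAAACAactctcaagct
Rfx2 and Rfx3, which encode RFX factors, each had a half-site in their own window, and so did both genes of ciliary proteins, Pifo and Mns1. The matches of the forkhead core began 16 bases before the start of Noto and 6 bases before that of Dand5. Windows of Pkd2, Pkd1l1 and Gdf1 held neither motif.

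All 10 genes are protein coding in GENCODE M21 on mm10. Noto lies at chr6:85423886-85428877 on the plus strand and Foxj1 at chr11:116330704-116335399 on the minus strand. Rfx2 lies at chr17:56775897-56831013 and Rfx3 at chr19:27761721-28011166, both on the minus strand. Pifo lies at chr3:105996957-106014646 on the minus strand and Mns1 at chr9:72438011-72462025 on the plus strand. Pkd2 lies at chr5:104459450-104505819 on the plus strand and Dand5 at chr8:84815405-84822823 on the minus strand. In Mns1, 2842 exon bases, 53.0% of its exon length, lie opposite exons of Tex9, and the library method does not record strand, so reads of the pair there cannot be told apart. Gdf1, at chr8:70329817-70331587 on the plus strand, shares all of its 1349 exon bases with Cers1 on the same strand, and Cers1 was also listed at 0 in all 18 libraries. Ambiguous reads were 0.495% to 0.756% of what was counted in each library, and the part of reads shared by Gdf1 and Cers1 in the 0 values was not tested.

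Noto was a transcript of the High gate. It had 2558, 2014 and 1625 normalised read counts in ΔHx High libraries and 2329, 1761 and 2896 in WT High libraries. In Mid it had 127, 96.5 and 58.2 in ΔHx and 119, 169 and 266 in WT, and in Neg it had 30.1, 30.8 and 7.23 in ΔHx and 16.0, 3.04 and 0.906 in WT. The gates did not overlap within a genotype. Mid libraries averaged 4.54% of the High mean in ΔHx and 7.93% in WT, and Neg libraries 1.10% in ΔHx and 0.286% in WT. On the log2(value + 1) scale, which understates changes of low genes, Noto was higher in High than in Neg by 6.66 in ΔHx (limma, adjusted p = 4.52e-08) and by 8.81 in WT (adjusted p = 8.96e-10). In sorted bulk cells, fewer cells of a type and less RNA per cell cannot be told apart, here and for every gene below.

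Foxj1, which encodes the master regulator of motile cilia, had the same order of gates. Its normalised read counts were 4464, 4485 and 4645 in ΔHx High and 6367, 3824 and 5177 in WT High libraries. They were 625, 617 and 471 in ΔHx Mid and 744, 518 and 655 in WT Mid libraries, and 107, 84.0 and 40.3 in ΔHx Neg and 71.4, 8.11 and 21.7 in WT Neg libraries. All High libraries lay above all Mid libraries, and all Mid above all Neg, in both genotypes. The Mid mean was 12.6% of the High mean in ΔHx and 12.5% in WT, and High exceeded Neg by 5.97 on the log2 scale in ΔHx (limma, adjusted p = 8.62e-09) and by 7.67 in WT (adjusted p = 2.78e-10). The WT Neg libraries differed widely among themselves, replicate 1 being the highest.

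The 2 RFX factors differed in how much of their RNA lay outside High. Rfx2 was a low transcript, with 270, 286 and 153 normalised read counts in ΔHx High and 315, 293 and 293 in WT High libraries. In Mid it had 75.4, 46.8 and 41.1 in ΔHx and 45.2, 29.6 and 68.9 in WT, and in Neg 8.93, 12.1 and 12.4 in ΔHx and 13.5, 8.11 and 12.7 in WT. Its Neg mean was thus 4.72% of the High mean in ΔHx and 3.81% in WT. Rfx3 had 1732, 1956 and 2245 in ΔHx High and 2935, 1944 and 2137 in WT High libraries. It kept 954, 912 and 1032 in ΔHx Mid and 917, 903 and 683 in WT Mid libraries, and 633, 614 and 595 in ΔHx Neg and 728, 474 and 449 in WT Neg libraries. Its Neg mean was 31.0% of the High mean in ΔHx and 23.5% in WT. High exceeded Neg by 4.25 and 4.63 on the log2 scale for Rfx2, in ΔHx and in WT, and by 1.68 and 2.10 for Rfx3, each with an adjusted p of at most 2.45e-07 by limma.

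The 2 genes of ciliary proteins also differed. Pifo had 1131, 1198 and 777 normalised read counts in ΔHx High and 1255, 846 and 1154 in WT High libraries. In Mid it had 268, 195 and 116 in ΔHx and 164, 172 and 187 in WT, and in Neg 23.4, 12.1 and 10.3 in ΔHx and 11.1, 10.1 and 9.96 in WT. Pifo was low in Neg, with means of 1.48% of the High mean in ΔHx and 0.96% in WT. Mns1 had 1567, 1657 and 1331 in ΔHx High and 1940, 1497 and 1555 in WT High libraries. In Mid it had 716, 703 and 663 in ΔHx and 719, 805 and 706 in WT, and in Neg 672, 637 and 551 in ΔHx and 839, 822 and 870 in WT. Mns1 was present in every gate, at 45.7% of its High mean in ΔHx Mid and 44.7% in WT Mid, and its Neg mean was 40.8% in ΔHx and 50.7% in WT. Tex9, its partner on the other strand, averaged 926 ± 123 in ΔHx High, 1019 ± 202 in WT High, 556 ± 30.6 in ΔHx Mid, 561 ± 7.95 in WT Mid, 585 ± 62.6 in ΔHx Neg and 640 ± 50.4 in WT Neg libraries (SD, n = 3 each). Both overlapping genes were therefore highest in High, and the part of Tex9 reads in Mns1 was not tested.

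**Figure D1:**
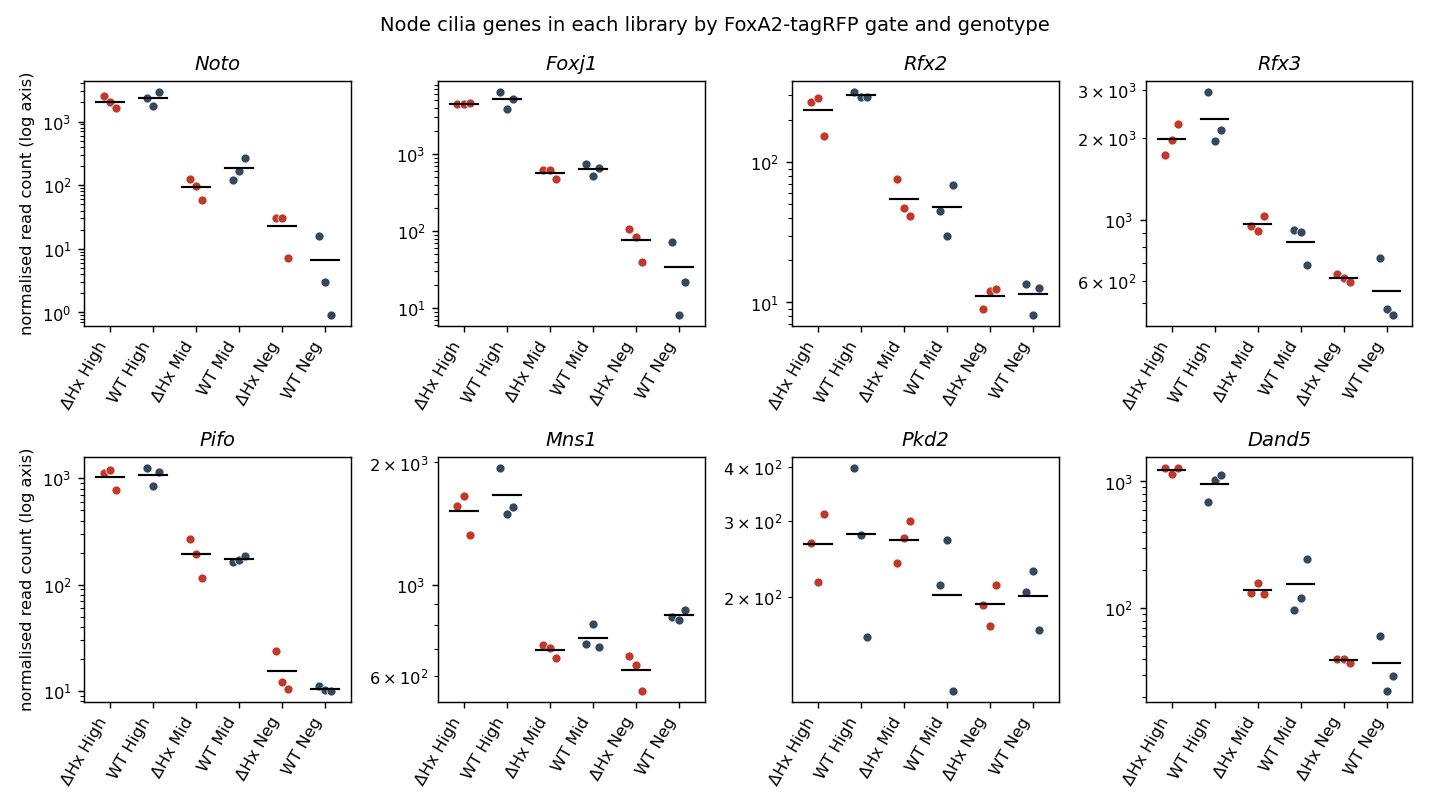
Normalised read count (log axis, its range set separately for each gene) of the 8 tested genes in each library, by genotype and gate; points are libraries (ΔHx red, WT dark blue) and bars are group means of n = 3. For Noto, Foxj1, Rfx2, Rfx3, Pifo, Mns1 and Dand5 the 6 High libraries lie above all 12 others. For Pkd2 the gates overlap, except that the ΔHx High and ΔHx Mid libraries lie just above the ΔHx Neg libraries.

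On the sensing side, Pkd2, the cation channel of the polycystin complex, did not follow the gates. Its normalised read counts were 267, 216 and 311 in ΔHx High, 398, 279 and 161 in WT High, 239, 274 and 300 in ΔHx Mid, 214, 271 and 121 in WT Mid, 192, 172 and 214 in ΔHx Neg and 206, 229 and 168 in WT Neg libraries. Within a genotype the gates overlapped, except that the ΔHx High and the ΔHx Mid libraries all lay just above the 3 ΔHx Neg libraries. High against Neg differed by 0.45 on the log2 scale in ΔHx (95% interval -0.15 to 1.05, limma, adjusted p = 0.224) and by 0.39 in WT (95% interval -0.21 to 0.99, adjusted p = 0.286). Differences of up to 1.05 on the log2 scale thus remain possible. Without WT High replicate 3, the lowest WT High library for this gene, the WT difference was 0.74 against Neg (adjusted p = 0.0351) and 0.79 against Mid (adjusted p = 0.0442). With the compared groups alone in the fit, Pkd2 was called higher in ΔHx Mid than in ΔHx Neg (adjusted p = 0.0375), which it was not in the fit of all groups.

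Dand5, the secreted Nodal antagonist of crown cells, was steeply graded. It had 1280, 1138 and 1280 normalised read counts in ΔHx High and 683, 1030 and 1132 in WT High libraries. In Mid it had 132, 157 and 130 in ΔHx and 97.3, 121 and 246 in WT, and in Neg 40.2, 40.1 and 37.2 in ΔHx and 60.4, 22.3 and 29.0 in WT. The gates were separate in both genotypes. The Neg mean was 3.18% of the High mean in ΔHx and 3.92% in WT, and High exceeded Neg by 4.94 on the log2 scale in ΔHx (limma, adjusted p = 7.51e-10) and by 4.73 in WT (adjusted p = 9.65e-10).

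Genes were called where limma's p, adjusted by Benjamini-Hochberg over all 14711 genes, was under 0.05. In High against Neg, 7 of the 8 tested genes were called higher in ΔHx, where 21.5% of all tested genes were, and 7 of 8 in WT, where 22.6% were. In High against Mid, 7 of 8 were called higher in ΔHx (13.3% of all tested genes) and 7 of 8 in WT (12.1%). The gene not called in any of these 4 comparisons was Pkd2. Every High library lay above every Neg library for 8 of 8 genes in ΔHx and 7 of 8 in WT, which held for 27.6% and 27.7% of all tested genes, and above every Mid library for 7 of 8 in ΔHx and 7 of 8 in WT, which held for 19.7% and 17.9%. In Mid against Neg, 6 of 8 were called higher in ΔHx (17.9% of all tested genes) and 6 of 8 in WT (17.4%), and the others were Pkd2 and Mns1. The median log2 difference of the 8 genes was 4.59 in ΔHx and 4.68 in WT for High against Neg, 2.28 in ΔHx and 2.65 in WT for High against Mid, and 1.98 in each genotype for Mid against Neg, with medians over all tested genes within 0.02 of 0. The 8 genes passed a filter on low values that a gene high in 1 gate passes through that gate, so these counts describe them and support nothing further. Mns1 differed by 0.17 in ΔHx and -0.18 in WT between Mid and Neg (adjusted p = 0.279 and 0.233). The smallest called difference between Mid and Neg was that of Rfx3, 0.65 in ΔHx (adjusted p = 0.00659) and 0.62 in WT (adjusted p = 0.00888), and without WT Neg replicate 3 the WT call was lost (adjusted p = 0.0593). Without ΔHx Neg replicate 3, the lowest ΔHx Neg library for Noto, the Noto difference of Mid against Neg in ΔHx was 1.52 (adjusted p = 0.0635), against 2.17 (adjusted p = 0.00853) with all libraries.

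**Figure D2:**
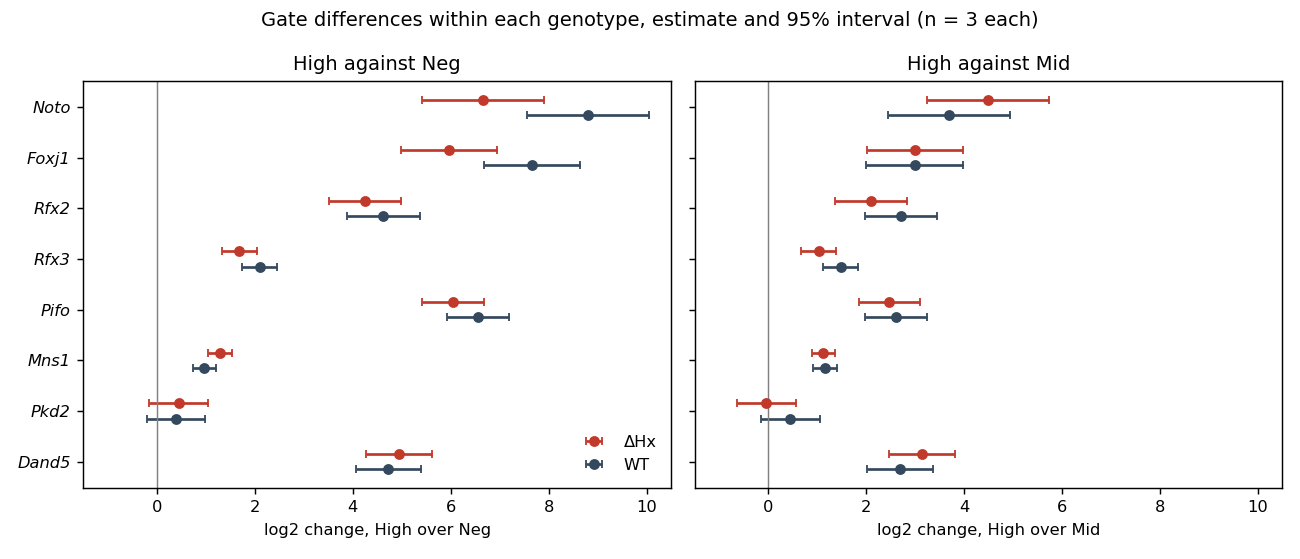
Differences between gates on the log2(value + 1) scale for the 8 tested genes, High over Neg at left and High over Mid at right, within ΔHx (red) and within WT (dark blue); points are limma estimates and bars are 95% intervals, n = 3 libraries per group. Noto has the largest estimate in WT for High over Neg, 8.81, and Pkd2 is the gene whose intervals reach 0 in both panels.

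Markers of visceral endoderm, the outer layer of the embryo, were highest in Mid. The summed values of 12 of them were 44431 to 50123 in ΔHx Mid and 39510 to 48890 in WT Mid libraries, against at most 5227 in ΔHx High and 8620 in WT High libraries. Summed values of 7 node and notochord markers (T, Shh, Chrd, Nog, Foxd4, Sox9 and Nodal) were 27194 to 28425 in ΔHx High and 22308 to 34236 in WT High libraries, 4308 to 5511 in ΔHx Mid and 4713 to 6735 in WT Mid libraries, and 2121 to 3649 in ΔHx Neg and 1995 to 3594 in WT Neg libraries. Markers of epiblast, of lateral and extraembryonic mesoderm and of blood and endothelium had their highest sums in Neg, at 19580 to 22895 for epiblast in ΔHx Neg and 17873 to 21138 in WT Neg, 3148 to 3376 for that mesoderm in ΔHx Neg and 3142 to 3736 in WT Neg, and 2040 to 2882 for blood and endothelium in ΔHx Neg and 1485 to 2989 in WT Neg libraries. Noto, Foxj1, Rfx2, Pifo and Dand5 had the gate order of the node and notochord markers, without overlap between gates. Rfx3 had it by its means, with overlap of Mid and Neg in WT. Summed values of 8 definitive endoderm markers had that order too. They were 36599 to 38147 in ΔHx High, 26524 to 30654 in ΔHx Mid and 2948 to 3467 in ΔHx Neg libraries. In WT they were 40247 to 43480 in High, 26069 to 32653 in Mid and 2890 to 3076 in Neg libraries. The sums hide differences among the 8, of which Cldn6 and Cer1 had the largest High means. Cldn6, Cer1, Foxa1 and Krt19 had larger means in High than in Mid in both genotypes, and Sox17 in ΔHx only. Trh, Spink1 and Tmprss2 had larger means in Mid in both. In High against Mid, 3 of these 8 were called higher and 2 lower in ΔHx, and 4 higher and 1 lower in WT. Of all 14711 tested genes, 1959 were called higher and 1810 lower in ΔHx, and 1774 higher and 1819 lower in WT. How far cell makeup sets the gate differences was not tested.

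To compare levels between genes, values were divided by the length of each gene's merged exons. In ΔHx High libraries Foxj1 was the highest of the 8, with 1728 ± 37.7 normalised reads per kb, ahead of Noto with 1289 ± 293, Pifo with 919 ± 201 and Dand5 with 778 ± 51.7 (SD, n = 3 each). Mns1 had 283 ± 31.4, Rfx3 179 ± 23.3, Rfx2 32.3 ± 9.98 and Pkd2 26.0 ± 4.65. In WT High libraries the order was the same, with 1953 ± 485 for Foxj1, 1454 ± 354 for Noto, 963 ± 189 for Pifo, 599 ± 148 for Dand5, 310 ± 44.8 for Mns1, 212 ± 47.6 for Rfx3, 41.1 ± 1.74 for Rfx2 and 27.5 ± 11.6 for Pkd2. Neighbours whose mean ± SD ranges overlapped were Noto and Pifo, Pifo and Dand5, and Rfx2 and Pkd2 in ΔHx, and Foxj1 and Noto, and Noto and Pifo in WT. The channel of the flow sensor and 1 of the RFX factors thus had the lowest means of the 8 per length. The cilia regulators Foxj1 and Noto had the highest means, but Noto did not differ from Pifo beyond their spread in either genotype. Over the 6 High libraries, the highest library exceeded the lowest by 1.46 times for Mns1, 1.62 times for Pifo and up to 2.47 times for Pkd2. ΔHx High replicate 3, the library with the fewest genes detected, was the lowest High library for Noto, Rfx2, Pifo and Mns1.

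The series asks what the helix deletion does to gene activity. For the genes followed here, no difference between ΔHx and WT was called in the High gate, where they were highest: 0 of 8 were called, and 0.122% of all tested genes were called in either direction. By edgeR and by DESeq2 on the recovered reads 0 of 8 were also called, and 0 of 8 had an unadjusted p under 0.05. In High, Noto averaged 2066 ± 469 in ΔHx and 2329 ± 567 in WT, and Foxj1 4532 ± 98.8 in ΔHx and 5123 ± 1273 in WT (SD, n = 3 each). The log2 differences were -0.17 for Noto (95% interval -1.41 to 1.08) and -0.15 for Foxj1 (-1.13 to 0.84), with adjusted p = 0.971 and 0.967 by limma. The fit shares a single spread per gene over all groups, so these High intervals also carry the spread of the Mid and Neg libraries. These pooled intervals leave room for a 2-fold difference of Noto in either direction and for a 2-fold lower Foxj1 in ΔHx. They were narrower for Mns1, which differed by -0.13 (-0.37 to 0.11), and Rfx3, which differed by -0.23 (-0.59 to 0.13).

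In the High gate, 2 of the 8 genes had genotypes that did not overlap, 1 in each direction. Rfx2 was lower in every ΔHx High library, at 236 ± 72.9 in ΔHx and 301 ± 12.7 in WT, a log2 difference of -0.40 (95% interval -1.14 to 0.34, limma, adjusted p = 0.815). Of all tested genes 5.2% did not overlap in this direction. Dand5 was higher in every ΔHx High library, at 1233 ± 81.8 in ΔHx and 948 ± 235 in WT, a log2 difference of 0.41 (95% interval -0.26 to 1.08, adjusted p = 0.791), and 5.72% of all tested genes did not overlap in that direction. Pifo differed by -0.07 (-0.70 to 0.55) and Pkd2 by 0.00 (-0.60 to 0.60). All 11 tested visceral endoderm markers had lower means in ΔHx High, with log2 differences of -1.79 to -0.38 and a median of -0.81, 0 of them called, and their sums were 1662 to 5227 in ΔHx High and 3388 to 8620 in WT High libraries. Definitive endoderm markers summed to 36599 to 38147 in ΔHx High and 40247 to 43480 in WT High libraries, and nascent and paraxial mesoderm markers to 3846 to 5436 in ΔHx High and 2968 to 3252 in WT High libraries, and the part of these in the High values was not tested.

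In the Mid gate 0 of 8 genes were called, by limma, edgeR and DESeq2, against 0.401% of all tested genes by limma, and 0 had an unadjusted p under 0.05. Noto had the largest estimate, at 93.7 ± 34.3 in ΔHx and 185 ± 74.6 in WT, a log2 difference of -0.96 (95% interval -2.21 to 0.28, adjusted p = 0.783). Its libraries overlapped: the highest ΔHx value was 127 and the lowest WT value 119. Pkd2 averaged 271 ± 30.5 in ΔHx and 202 ± 75.7 in WT, a difference of 0.49 (-0.11 to 1.09, adjusted p = 0.752). The others were within 0.25 of 0. Of 7 node and notochord markers, 1 was called lower in ΔHx Mid: Nog, a BMP antagonist named here after its values were seen, had 52.1, 63.4 and 31.9 in ΔHx Mid and 732, 114 and 151 in WT Mid libraries (limma, adjusted p = 0.0277). That call was lost with the compared groups alone (adjusted p = 0.581) and when any 1 of the ΔHx Mid libraries was left out (adjusted p up to 0.131). Summed parietal endoderm markers were 12444 to 17710 in ΔHx Mid and 31425 to 189452 in WT Mid libraries, without overlap, and the part of this in the Mid values was not tested.

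**Figure D3:**
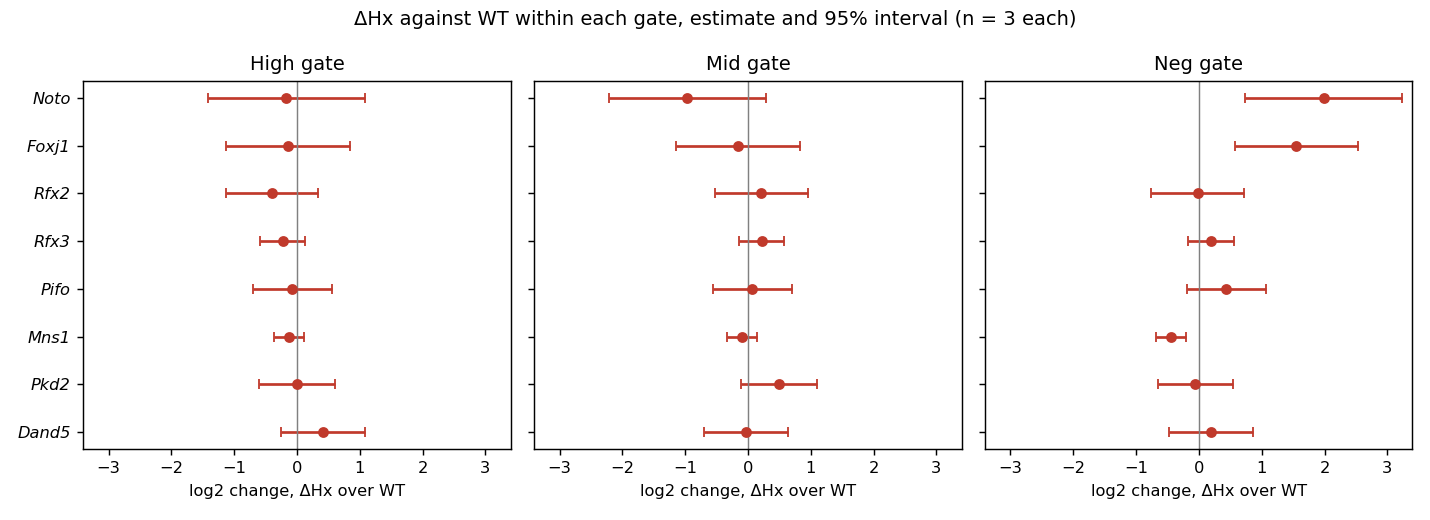
Differences of ΔHx over WT on the log2(value + 1) scale for the 8 tested genes in the High, Mid and Neg gates; points are limma estimates and bars are 95% intervals, n = 3 libraries per group. In High and Mid every interval reaches 0, and in Neg those of Noto, Foxj1 and Mns1 do not, with adjusted p-values of 0.452, 0.459 and 0.213. Each gene has a single spread pooled over all groups, so an interval does not measure the spread of its own gate alone.

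In the Neg gate, which holds cells without red signal, Noto and Foxj1 were present as traces, with larger means in ΔHx. Foxa2 also had a larger mean there, 53.6 ± 9.65 in ΔHx Neg and 28.2 ± 10.9 in WT Neg (SD, n = 3 each). The part of this difference in the Neg values was not tested. None of the 8 genes was called, by limma, edgeR or DESeq2, against 0.245% of all tested genes by limma, but 3, Noto, Foxj1 and Mns1, had an unadjusted p under 0.05, as did 4.17% of all tested genes. Noto rested on 27, 33 and 7 reads in ΔHx Neg and 13, 3 and 1 in WT Neg libraries, and averaged 22.7 ± 13.4 in ΔHx and 6.65 ± 8.18 in WT. The log2 difference was 1.99 (95% interval 0.74 to 3.23, limma, adjusted p = 0.452). This interval, like the limma p-values here, uses the spread pooled over all gates and not that of the Neg libraries alone. Foxj1 rested on 96, 90 and 39 reads in ΔHx Neg and 58, 8 and 24 in WT Neg libraries, and averaged 77.1 ± 34.0 in ΔHx and 33.8 ± 33.3 in WT. Its difference was 1.55 (0.57 to 2.54, adjusted p = 0.459). For both genes WT Neg replicate 1 lay among the ΔHx libraries. Without that library both genes were called by limma, Noto at 2.86 (adjusted p = 0.0160) and Foxj1 at 2.33 (adjusted p = 0.00430). It was the highest WT Neg library for both, so leaving it out widens the difference, and no conclusion is drawn from these calls. No other single library left out gave a call, and the estimates ran from 1.28 to 2.86 for Noto and from 0.83 to 2.33 for Foxj1.

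Mns1 differed in the other direction in Neg, being lower in every ΔHx library, at 620.2 ± 62.1 in ΔHx and 844 ± 24.5 in WT. The log2 difference was -0.45 (95% interval -0.69 to -0.21, limma, adjusted p = 0.213), and 6.04% of all tested genes did not overlap in this direction. Over the alternatives its adjusted p was 0.0857 to 0.708. The other 5 genes differed by 0.43 at most, that of Pifo (95% interval -0.19 to 1.06), each with an adjusted p of 1. The genotype difference was not called to vary between gates for any of the 8: 0 were called for High minus Neg, for High minus Mid and for Mid minus Neg, where 0.0%, 0.0136% and 0.0068% of all tested genes were called. The largest such estimate was Noto in Mid minus Neg, -2.95 (adjusted p = 0.575), with 3 of the 8 genes at an unadjusted p under 0.05 in that comparison (4.32% of all tested genes), 2 in High minus Neg (3.15%) and 0 in High minus Mid (6.13%).

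Genes of the node and of cilia were also read in the Neg gate. Of 7 node and notochord markers, 2 were called higher in ΔHx Neg and 0 lower, where 0.136% of all tested genes were called higher. Shh, the hedgehog ligand of notochord, which was picked here after its values were seen, had 45.8, 54.1 and 20.6 normalised read counts in ΔHx Neg libraries and 6.16, 0 and 0 in WT Neg libraries. The WT values rest on 5 reads in all. Its log2 difference was 4.31 (SE 0.62, limma, adjusted p = 0.00323), and it was called neither by edgeR (adjusted p = 0.124) nor with the compared groups alone (adjusted p = 0.0711). Nodal had 114, 117 and 152 in ΔHx Neg and 43.1, 84.2 and 66.1 in WT Neg libraries, a difference of 1.01 (SE 0.20, adjusted p = 0.0392). It was not called by edgeR (adjusted p = 0.111), without a filter (0.0591), with the compared groups alone (0.307) or when any 1 library of the 6 other than WT Neg replicate 2 was left out (adjusted p up to 0.237). All 7 markers had higher estimates in ΔHx Neg, with log2 differences of 0.10 to 4.31 and a median of 0.72. The summed values of the 7 markers overlapped, at 2121 to 3649 in ΔHx Neg and 1995 to 3594 in WT Neg libraries. Most of these sums was T, with means of 2249 in ΔHx Neg and 2124 in WT Neg, so they say little about the other markers. The highest WT sum was that of replicate 1, the WT Neg library with the most Noto, Foxj1 and Shh. The part of node cells in these Neg values was not tested.

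**Figure D4:**
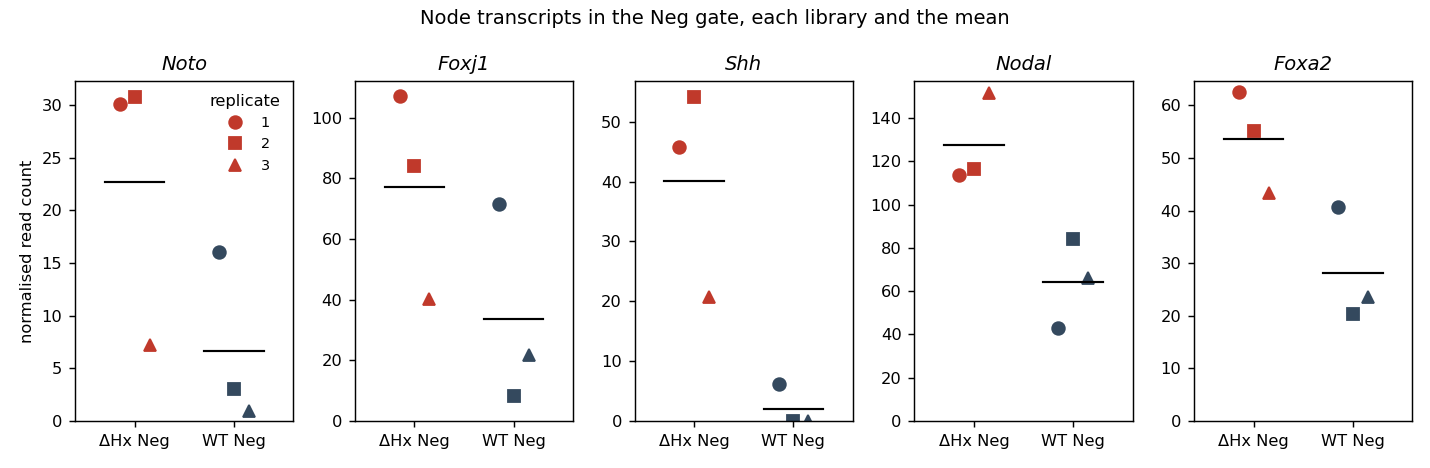
Normalised read counts (linear axes from 0) of Noto, Foxj1, Shh, Nodal and Foxa2 in the Neg gate, ΔHx in red and WT in dark blue; symbols mark replicates 1 to 3 and bars are means of n = 3. For Noto, Foxj1, Shh and Foxa2 the highest WT library is replicate 1, whereas for Nodal it is the lowest.

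Between ΔHx and WT, 0 of 38 tested genes of the motile axoneme were called in High or in Mid. Of all tested genes, 0.122% were called in High and 0.401% in Mid, in either direction. In ΔHx Neg 2 of the 38 were called higher, where 0.136% of all tested genes were. They were Zmynd10, a dynein assembly factor, with 15.6, 31.7 and 10.3 in ΔHx Neg and 1.23, 5.07 and 0 in WT Neg libraries (limma, adjusted p = 0.0103), and Rsph4a, a radial spoke protein, with 13.4, 25.2 and 6.19 in ΔHx Neg and 1.23, 2.03 and 0 in WT Neg libraries (adjusted p = 0.0212). Neither was called by edgeR, with adjusted p = 0.117 for Zmynd10 and 0.451 for Rsph4a, nor with the compared groups alone (adjusted p = 0.240 and 0.204), nor without ΔHx Neg replicate 1, ΔHx Neg replicate 2 or WT Neg replicate 3, with adjusted p up to 0.111 and 0.205, nor, for Rsph4a, with a pseudocount of 5 (adjusted p = 0.338). DESeq2 called Shh, Nodal, Zmynd10 and Rsph4a higher in ΔHx Neg. In Neg, where these ciliary RNAs were traces, the WT libraries thus held from 0 to 5 reads of each.

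Other genes of the same pathways were read from lists. In High against Neg, 36 of 38 tested axonemal genes were called higher and 0 lower in each genotype. Of all tested genes, 21.5% in ΔHx and 22.6% in WT were called higher there, and 21.1% and 21.8% lower. Dynlrb2, a dynein light chain, was higher in High by 6.97 on the log2 scale in ΔHx and 8.39 in WT, and Enkur, a protein of ciliary microtubules, by 6.51 in ΔHx and 8.57 in WT. In High against Mid all 38 were called higher in each genotype, beside 13.3% of all tested genes in ΔHx and 12.1% in WT. In Mid against Neg 30 were called higher and 1 lower in ΔHx, and 33 higher and 0 lower in WT. For that comparison 17.9% of all tested genes in ΔHx and 17.4% in WT were called higher, and 16.5% and 15.4% lower. Most axonemal genes thus had the order of gates of Noto and Foxj1, and not the order of Mns1, whose Mid and Neg levels were not called different.

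Among 8 further RFX genes, 2 were called higher in High than in Neg in ΔHx and 3 in WT, and 0 lower, and 2 of 8 and 3 of 8 are near the 21.5% and 22.6% of all tested genes called higher. Rfx6, known from endoderm and pancreas, was higher by 3.03 in ΔHx and 2.68 in WT, but its Mid means, 44.0 in ΔHx and 53.2 in WT, were above its High means of 28.4 in ΔHx and 32.1 in WT. Rfx1, a broadly expressed RFX factor, was higher by 0.58 in ΔHx and 0.51 in WT, and its call was lost in ΔHx without ΔHx High replicate 1 or ΔHx Neg replicate 2, and in WT without WT High replicate 1, WT Neg replicate 1 or WT Neg replicate 3 (adjusted p up to 0.142). Of 11 tested regulators of multiciliated cells and other ciliary programmes, 5 were called higher in each genotype, beside the same 21.5% and 22.6% of all tested genes, and 2 lower in ΔHx and 3 in WT, near the 21.1% and 21.8% of all tested genes called lower. Ccno, a cyclin of multiciliated cells, was higher by 4.07 in ΔHx and 4.20 in WT, and Stox1, a winged-helix gene, by 3.95 in ΔHx and 3.84 in WT. Myb, a factor of blood progenitors and of multiciliated cells, was lower in High, by -3.78 in ΔHx and -3.72 in WT.

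Pathway partners of Pkd2 and of Dand5 were mixed. Of 2 tested polycystin genes beyond Pkd2, 0 were called in ΔHx and 1 in WT: Pkd1, the large polycystin of kidney cilia, was higher by 0.41 in ΔHx (adjusted p = 0.0999) and 0.93 in WT (adjusted p = 0.000767), and the difference between those was not called. Of 15 genes of the Nodal pathway, 6 were called higher in each genotype, and 3 lower in ΔHx and 2 in WT, where 21.5% of all tested genes in ΔHx and 22.6% in WT were called higher and 21.1% and 21.8% lower. Cer1, a Nodal antagonist of anterior endoderm, was higher in High by 5.05 in ΔHx and 5.34 in WT, Bicc1, an RNA-binding protein that acts on Dand5 mRNA, by 4.37 in ΔHx and 4.45 in WT, and Nodal by 3.68 in ΔHx and 4.44 in WT. Lefty2, an antagonist in this pathway, was lower in High by -3.73 in ΔHx and -2.72 in WT. Its means were highest in Mid, at 1819 in ΔHx and 2242 in WT, against 988 in ΔHx Neg and 819 in WT Neg.

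**Figure D5:**
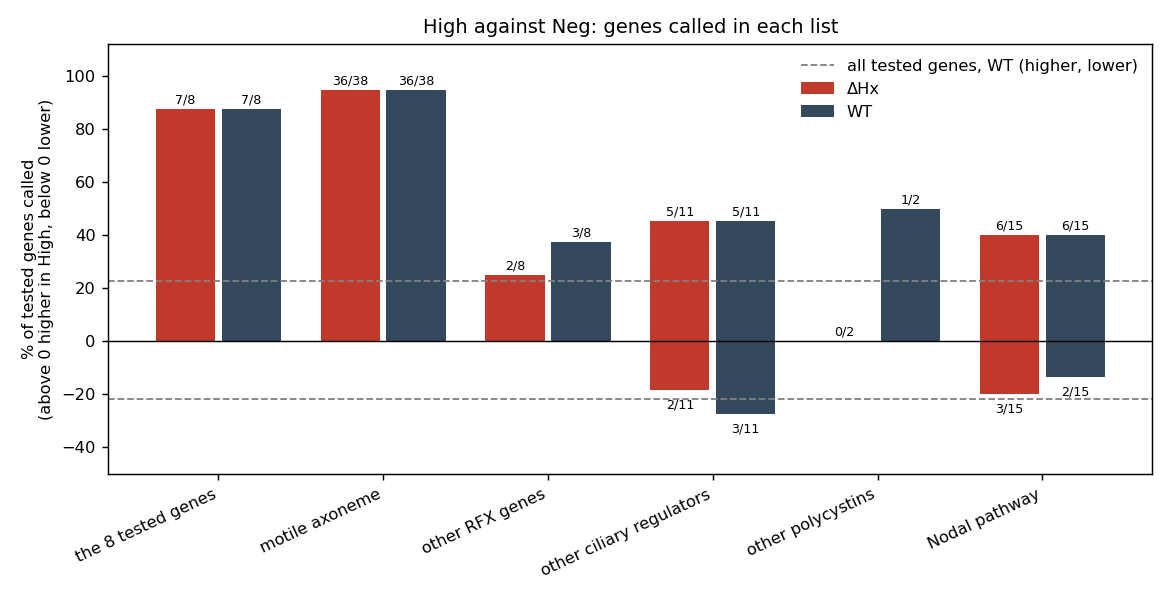
Percent of tested genes in each list called higher (above 0) or lower (below 0) in High than in Neg, ΔHx red and WT dark blue, with the counts called of those tested; dashed lines give the percent of all 14711 tested genes called in WT. The node cilia genes stand at 7 of 8 and the axonemal genes at 36 of 38 in each genotype.

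Likeness of pattern was measured as the root mean square difference of log2(value + 1) over the 18 libraries, each gene centred on its own mean. A smaller value is more alike. Genes were not scaled, so pairs of genes that vary little between libraries have small values by construction. Values of evenly spread and of steeply graded genes are therefore not comparable. The 3 genes most like Noto were Vtn (0.66), Dnah5 (0.66) and Cfap44 (0.67), of which the last pair encode axonemal proteins. The nearest to Foxj1 were Fam183b (0.42), Cfap126 (0.44) and Dnah6 (0.46), and those nearest to Pifo were Ccdc180 (0.39), Nek5 (0.44) and Cfap53 (0.50). The nearest to Rfx2 were Efcab10 (0.31), Ubxn11 (0.38) and Ccdc189 (0.42). Dand5 was nearest to Lrrc48 (0.43), Mak (0.43) and Slit2 (0.44). The more evenly spread genes had neighbours at smaller distances: Tet3 (0.19), Adamts10 (0.22) and Wdr60 (0.22) for Rfx3, Cnp (0.17), Ift27 (0.17) and Uaca (0.19) for Mns1, and Zcchc11 (0.23), Upf3b (0.23) and Satb1 (0.24) for Pkd2. Among the 8 themselves the closest pair was Rfx3 and Mns1 (0.44), followed by Rfx2 and Dand5 (0.51), Pkd2 and Mns1 (0.55) and Foxj1 and Pifo (0.67), and the farthest was Noto and Pkd2 (3.19). The libraries share gates and genotypes, so these values are descriptions of pattern and carry no test.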

How the data were processed

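Sorted cells were profiled in 18 SMART-Seq2 libraries, each from RNA equal to 1000 cells and read from 1 end for 75 bases, per the labels' protocols. The authors deposited a signal table in which each library's read counts per gene were divided by its size factor. The submitters' processing notes name DESeq, DESeq2, HTSeq 0.6.1, STAR 2.5.2a and the mm10 genome, with an annotation not given in the sources used here. Of 440964 values 440964 were whole multiples of 1 read within 1e-06 reads, 1 read being worth 0.825 to 1.37. The counter rows stayed out: reads without a feature were 7.17% to 12.1%, ambiguous ones 0.495% to 0.756% and those not unique 37.7% to 41.3% of what was counted. The ribosomal RNA precursor Rn45s took 23.7% to 44.0% of reads in genes. No 2 replicates agreed within sampling noise.

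The 14711 genes whose values reached 10 in 3 or more libraries were tested with limma 3.58.1 in R 4.3.3 on log2(value + 1), with 6 group means over 18 libraries and a trended variance. Tests were two-sided, adjusted by Benjamini-Hochberg within each contrast. The script was tested on simulated data. As alternatives, the pseudocount was set to 0.5 or 5, the filter was dropped or raised to 50, edgeR 4.0.16 and DESeq2 1.42.0 were run on the recovered reads, totals without Rn45s were made equal, the compared groups were fitted alone, a replicate block was added, and each library was left out in turn. The labels call the replicates biological and name no shared day or litter. In the main fit, p-values and intervals measure the spread between these libraries pooled over all 6 groups, and not that of a single gate. The genes and lists were chosen with earlier results of these data known. Named genes were the 10, the 3 tested genes most like each, and list members with the largest called changes; predicted genes were left out. Exon lengths come from GENCODE M21 and promoters from RefSeq (GRCm38.p6). The result of 1 gene list is not reported here.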

Additional observations from a re-analysis of the deposited data

How the results depend on the processing

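The count of the 8 genes called in each contrast kept within 1.5 times its value under every alternative except that leaving out single libraries gave 0 to 2 in the Neg genotype contrast. Counts over all genes moved: in High 18 were called, against 3 with the compared groups alone, 84 by DESeq2 and 8 to 21 without single libraries; in Mid 59, against 3, 179 and 13 to 132; in Neg 36, against 23 by edgeR and 10 to 43 without single libraries. For the differences between gates, High minus Neg had 0, against 6 by DESeq2 and 0 to 2 without single libraries. High minus Mid had 2, against 26 by DESeq2, 1 by edgeR, 1 without a filter, 1 with the replicate block, 5 with the block within genotype, 0 with the filter of 50, 0 with the pseudocount of 0.5 and 0 to 24 without single libraries. Mid minus Neg had 1, against 19 by DESeq2, 0 by edgeR, 0 with the filter of 50, 0 with the pseudocount of 0.5, 2 with the pseudocount of 5, 7 with the replicate block within genotype and 0 to 24 without single libraries. The cause was not tested.

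Directions turned where estimates lay near 0. Pkd2 in High was -0.000122 with the pseudocount of 5, -0.067 by edgeR, -0.074 by DESeq2 and -0.014 with equal totals. Dand5 in Mid was 0.00495 with equal totals. Pkd2 in Mid against Neg in WT was 0.00547 by edgeR and 0.00755 by DESeq2, and its High minus Neg difference -0.013 by DESeq2. The Foxj1 High minus Mid difference was -0.016 by edgeR, -0.016 by DESeq2 and -0.045 with equal totals. Without single libraries the ranges that crossed 0 were, in High, Noto -0.35 to 0.00349, Foxj1 -0.34 to 0.026, Pkd2 -0.35 to 0.30 and Pifo -0.24 to 0.12; in Mid, Rfx2 -0.086 to 0.51, Dand5 -0.31 to 0.35 and Pifo -0.21 to 0.39; and in Neg, Rfx2 -0.23 to 0.12, Pkd2 -0.18 to 0.046 and Dand5 -0.10 to 0.60. Between gates Pkd2 ran from -0.17 to 0.093 for High against Mid in ΔHx and from -0.31 to 0.27 for Mid against Neg in WT. Differences between gates that crossed 0 were Pkd2 -0.29 to 0.36 and Dand5 -0.19 to 0.50 for High minus Neg, Foxj1 -0.18 to 0.18, Pifo -0.46 to 0.14 and Mns1 -0.10 to 0.085 for High minus Mid, and Rfx2 -0.067 to 0.53, Rfx3 -0.19 to 0.16 and Dand5 -0.64 to 0.16 for Mid minus Neg.

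Per length of the longest transcript in place of the merged exons, the High levels per kb were 57.1 in ΔHx and 72.6 in WT for Rfx2, 50.7 in ΔHx and 53.5 in WT for Pkd2, and 216 in ΔHx for Rfx3. Libraries with equal replicate numbers did not vary together across genotypes, where 0 of 27 pairs had a correlation of deviations over 0.1. Within a genotype they did weakly, at 0.0156 to 0.291 in 18 pairs, 5 of them over 0.1, and in 36 of 36 comparisons a library correlated best with its own number in the other gate, a hint from the data and not from the labels. Neither the replicate block nor a block within genotype, which was chosen after seeing the data and fitted for gate differences only, changed the number of the 8 genes called in any contrast. Traces of Noto in Neg rest on 1 to 33 reads a library, where counting error is large.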
